A study of Homo sapiens with 6 samples.

Results

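Condensin and cohesin are ring-shaped protein complexes that organise chromosomes, and the transcripts of 10 of their core subunits are described here. They were chosen by name from a deposited table of 50868 genes: SMC2, SMC4, NCAPD2, NCAPD3, NCAPG and NCAPH for condensin, and SMC1A, SMC3, RAD21 and STAG2 for cohesin. Each of the 10 had 1 row in the table and passed the filter on low counts. RNA sequencing had been done on KYSE-150, an established line of human oesophageal squamous carcinoma cells. The 3 libraries of one group are titled nc, called wild type in the series text, and the 3 of the other are titled si, described as a ZNF514 knockout by siZNF514. What the nc cells received, the doses and the times are not stated in the labels, and all 6 libraries come from the 1 line. Nothing says that replicates were grown apart, so a p-value here reflects only library-to-library spread, which may be technical.

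An SMC protein is a long coiled coil that folds back on itself and carries an ATPase head, and each complex closes a pair of different SMC proteins with a kleisin subunit. In condensin the pair is SMC2 and SMC4. Condensin I adds the kleisin NCAPH and the repeat proteins NCAPD2 and NCAPG, and condensin II adds NCAPH2, NCAPD3 and NCAPG2 to the same SMC pair. Condensins compact chromosomes for mitosis. In cohesin the pair is SMC1A and SMC3, closed by the kleisin RAD21 and bound by STAG2 or its paralog STAG1. Cohesin holds sister chromatids together until anaphase and extrudes chromatin loops in interphase.

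Library totals ran from 12175259 to 14318909 counts. The targeted transcript ZNF514 had 239, 273 and 261 counts in nc and 64, 82 and 63 in siZNF514. All 8 squamous and simple epithelial markers on a fixed list (EPCAM, CDH1, KRT5, KRT17, KRT8, KRT18, TP63 and SFN) passed the filter, with summed levels of 4464 to 4795 CPM (counts scaled to a common library total) in nc and 4882 to 5745 in siZNF514. The list did not move one way: EPCAM (log2 fold change 0.41), KRT8 (0.58) and KRT18 (0.77) rose, KRT5 fell (-0.52), the other 4 did not pass, and its median was -0.12. The library siZNF514 replicate 3 stood apart in fibroblast genes. It held 112 counts of COL3A1, 49 of COL1A2 and 33 of DCN, none of which had a count in the other siZNF514 libraries. The sum over the 5 fibroblast markers was 11.2 to 12.8 CPM in nc, and 13.1 to 35.5 in siZNF514. None of the 12 markers of fibroblasts, immune cells and endothelium was at 0 in every library, and 4 of the 12 passed the filter. Calls that changed without siZNF514 replicate 3 are given with that value.

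Promoter windows of 300 bases, 250 before and 50 from each annotated transcript start, were matched in RefSeq (GRCh38.p14) for 9 of the 10 members, RAD21 having no entry used here. They were searched on both strands for TTTGAA, the core letters of the cell cycle homology region known from promoters of mitotic genes. A match was present for 6 of the 9 members, and in 18.2% of the 27305 genes with windows (15.2% of 35116 windows). The 9 members had 15 windows, more per gene than all genes had, so shares per gene, here and below, are not like for like. These are the matched sites, written 5′ to 3′ on the gene's strand with 12 bases on each side and the motif, or its complement TTCAAA, in capitals, shown because members that rose and members that did not both carry it:
NCAPG (chr4:17810932-17810961, plus strand): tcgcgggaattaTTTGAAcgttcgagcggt
NCAPD2 (chr12:6493945-6493974, plus strand): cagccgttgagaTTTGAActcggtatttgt
NCAPD3 (chr11:134223953-134223982, minus strand): gcgggagcgagcTTTGAAagttgagcacgg
SMC2 (chr9:104094294-104094323, plus strand): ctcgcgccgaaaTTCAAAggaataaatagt
SMC4 (chr3:160399563-160399592, plus strand): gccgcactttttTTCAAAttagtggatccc
SMC3 (chr10:110567532-110567561, plus strand): cagaattctagaTTCAAAagaaatccacca

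The motif began 35 bases before the start in NCAPG, 145 in NCAPD2, 3 in SMC2, 75 in SMC4 and 151 in SMC3. In NCAPD3 it began 3 bases before the more downstream of its 2 starts. NCAPG carries the E2F-like letters GCGGGAA (complement of TTCCCGC) just ahead of TTTGAA, starting 45 bases before the start. That E2F-like motif was found for 3 members, against 7.82% of genes. The CCAAT box (CCAAT or ATTGG) was found for 4 members, against 39.7% of genes, with 4 copies in the NCAPD2 window. No motif overlapped another in these windows. The NCAPH window held no TTTGAA on either strand. Its upstream 250 bases, which lie in no GENCODE 29 exon, hold 1 CCAAT box, in capitals:
NCAPH (chr2:96335516-96335765, plus strand): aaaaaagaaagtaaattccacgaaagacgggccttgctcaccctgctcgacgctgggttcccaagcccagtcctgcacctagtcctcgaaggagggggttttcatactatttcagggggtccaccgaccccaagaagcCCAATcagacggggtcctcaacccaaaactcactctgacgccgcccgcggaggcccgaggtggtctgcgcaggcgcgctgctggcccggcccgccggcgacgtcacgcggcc

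In siZNF514, 4 condensin subunits that are not SMC proteins rose, by 1.28-fold to 1.61-fold, while the SMC pair they share did not rise. The condensin I subunits NCAPD2 and NCAPG rose most, followed by NCAPD3 of condensin II and NCAPH, the condensin I kleisin. The other 2 non-SMC subunits, both of condensin II and outside the 10, did not rise. NCAPG2 did not pass (log2 fold change 0.09), and NCAPH2 passed as lower (-0.24), a call lost under several settings. In bulk RNA, a larger share of cells in one cell cycle phase and more RNA per cell cannot be told apart. SMC2 passed the test narrowly as lower, SMC4 did not pass, and no cohesin core subunit passed. In all, 5 of the 10 members were called, 4 higher and 1 lower, at a Benjamini-Hochberg adjusted p under 0.05 from edgeR's quasi-likelihood fit. The share over all 14250 genes tested was 50.6%, with 25.5% higher and 25.1% lower, so the count of members called is near the background. With total counts in place of TMM scaling, 2493 genes were higher and 4775 lower, and the median gene stood at -0.14 on the log2 scale in place of -0.01. Libraries of the groups did not overlap for 5 members, 4 higher and 1 lower, against 60.3% of all tested genes (30.0% higher and 30.3% lower). None of the members changed by 2-fold or more, which 9.28% of genes did while passing the test (2.08% higher). Over the 6 condensin members the median log2 fold change was 0.37, and over the 4 cohesin members 0.02.

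**Figure D1:**
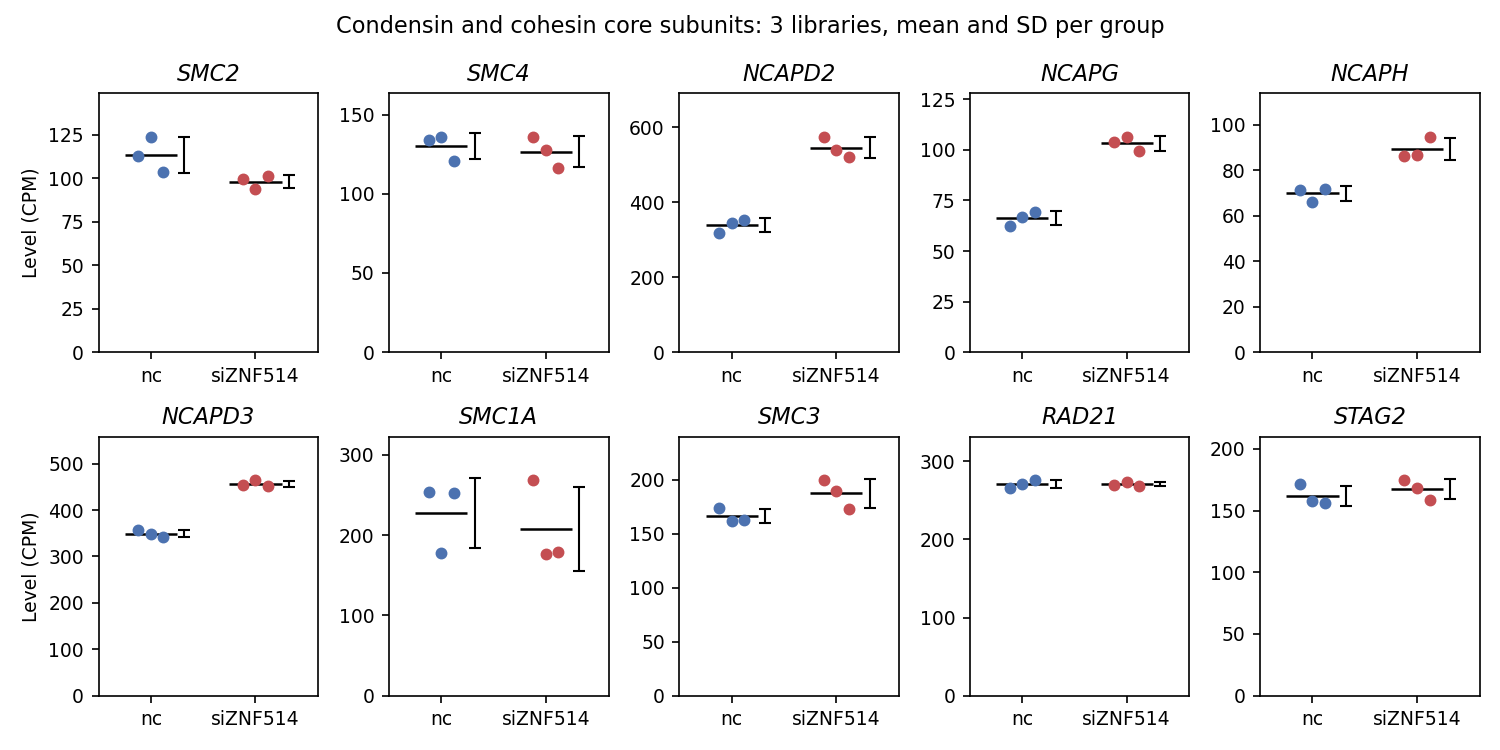
Level of each of the 10 subunits in CPM (vertical axis, from 0) in the 3 nc libraries (blue) and the 3 siZNF514 libraries (red), with the mean as a line and the SD as a bar. The groups are apart and higher in siZNF514 for NCAPD2, NCAPG, NCAPH and NCAPD3, and SMC1A has libraries near 178 and near 254 or above in both groups.

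NCAPD2, a repeat subunit of condensin I (ENSG00000010292, GRCh38 chromosome 12, 6493356 to 6531955, plus strand), had the largest change among the members. Its levels were 317, 345 and 352 CPM in nc, with TMM scaling here and below, and 574.5, 539.5 and 521 in siZNF514. Every siZNF514 library lay above every nc library. The mean was 338 ± 18.6 CPM (SD, n = 3) in nc and 545 ± 27.3 (SD, n = 3) in siZNF514, with a log2 fold change of 0.69 (SE 0.05) and an adjusted p of 8.14e-05 in the edgeR test. The next gene downstream on the same strand, the glycolytic enzyme gene GAPDH, rose too (log2 fold change 0.62, SE 0.05), and MRPL51, which overlaps the start of NCAPD2 on the other strand, rose by 0.30 (SE 0.07). Neighbouring genes were picked by position, after the data were seen, and their part in the counts of the members was not tested.

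NCAPG (ENSG00000109805, chromosome 4, 17810902 to 17844862, plus strand) is the other repeat subunit of condensin I, and its start site region is shown above with adjacent E2F-like and TTTGAA letters. It was at 62.3, 66.9 and 69.3 CPM in nc and 104, 107 and 99.4 CPM in siZNF514. The groups did not overlap, and the mean went from 66.2 ± 3.56 to 103 ± 3.62 CPM (SD, n = 3), or by 0.64 on the log2 scale (SE 0.06, adjusted p = 0.000145 in edgeR). LCORL, which overlaps the end of NCAPG on the opposite strand, was at 10.3 ± 1.79 CPM in nc and 15.2 ± 2.02 in siZNF514 (SD, n = 3). DCAF16, which lies just ahead of NCAPG on the opposite strand without overlap, rose by 0.30 on the log2 scale (SE 0.06).

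NCAPH (ENSG00000121152, chromosome 2, 96335787 to 96373845, plus strand), the kleisin that closes condensin I, rose less than NCAPD2 and NCAPG by its estimate, a difference that was not tested. It was at 71.3, 65.9 and 71.9 CPM in nc and 86.2, 86.5 and 94.7 CPM in siZNF514. The lowest siZNF514 library was above the highest nc library. Its log2 fold change was 0.35 (SE 0.06, adjusted p = 0.00281 in edgeR), and it was 0.23 with total counts alone (adjusted p = 0.0183).

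NCAPD3 (ENSG00000151503, chromosome 11, 134150119 to 134225454, minus strand) is the condensin II counterpart of NCAPD2. It stood at 357, 348 and 342 CPM in nc and at 453, 465 and 451 CPM in siZNF514, with little spread inside either group. Its log2 fold change was 0.39 (SE 0.03, adjusted p = 0.00011 in edgeR) and 0.25 in limma-trend on log2(FPKM + 1), also past the threshold. VPS26B, which overlaps the start of NCAPD3 on the other strand, moved the opposite way (log2 fold change -0.66, SE 0.05). Without siZNF514 replicate 3, the log2 fold changes of NCAPD2, NCAPG, NCAPH and NCAPD3 were 0.73, 0.68, 0.32 and 0.40, all past the threshold.

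SMC2 (ENSG00000136824, chromosome 9, 104094260 to 104141417, plus strand), the SMC protein common to both condensins, went the other way. It was at 113, 124 and 103 CPM in nc and 99.5, 94.0 and 101 CPM in siZNF514. The groups did not overlap, but the highest siZNF514 library was close to the lowest nc library. Its log2 fold change was -0.21 (SE 0.07), with an adjusted p of 0.049 in edgeR. This call did not hold in the DESeq2 Wald test (-0.20, adjusted p = 0.0947) or when any library other than nc replicate 3 was left out. The value was -0.14 without nc replicate 2, -0.21 without nc replicate 1 or siZNF514 replicate 1, -0.17 without siZNF514 replicate 2 and -0.22 without siZNF514 replicate 3. The call held at larger values with total counts alone (-0.33, adjusted p = 0.00766 in edgeR) and in limma-trend on log2(FPKM + 0.1) (-0.33, adjusted p = 0.015), scalings under which the median gene was also lower.

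SMC4 (ENSG00000113810, chromosome 3, 160399274 to 160434962, plus strand), the partner of SMC2, did not pass. It was at 134, 136 and 121 CPM in nc and 136, 127.5 and 116 CPM in siZNF514, with overlapping groups. The log2 fold change was -0.04 (0.02 without siZNF514 replicate 3 and -0.17 with total counts alone, neither past the threshold), with a 95% interval of -0.22 to 0.13, which leaves out the changes of the 4 condensin members that rose. TRIM59, a gene on the opposite strand that overlaps the end of SMC4, rose (log2 fold change 0.62, SE 0.08). IFT80, which overlaps the start of SMC4 on the opposite strand, did not pass (-0.21, SE 0.08). Since strand use in counting is not stated, reads of the overlaps cannot be told apart. Counts assigned to pseudogenes were few: SMC4P1, NCAPGP1 and NCAPGP2 had none in any library, and NCAPD2P1 had at most 4 in a library.

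**Figure D2:**
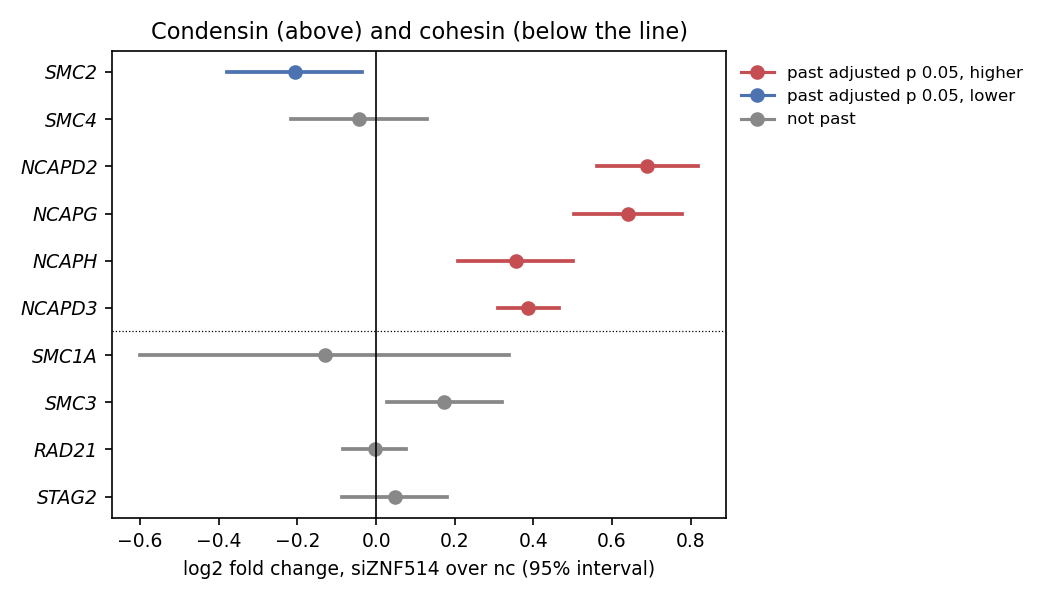
Log2 fold change of siZNF514 over nc with its 95% interval (horizontal axis) for the 6 condensin subunits above the dotted line and the 4 cohesin subunits below it. The intervals of NCAPD2, NCAPG, NCAPH and NCAPD3 lie above 0, that of SMC2 lies just below 0, and that of SMC1A runs from -0.60 to 0.34.

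The cohesin core showed no called change. Of its 4 members, 0 passed in edgeR and 0 in the DESeq2 Wald test. An unadjusted p under 0.05 was seen for 1 in edgeR (SMC3), and 1 passed in limma-trend on log2(FPKM + 0.1) (RAD21). Of all tested genes, 50.6% passed in edgeR and 6431 of 18419 in the DESeq2 Wald test. In limma-trend on log2(FPKM + 0.1), 7067 of 17683 passed. RAD21, the kleisin that separase cuts at anaphase (ENSG00000164754, chromosome 8, 116845935 to 116874866, minus strand), was at 266, 271 and 276 CPM in nc and 269.8, 273 and 268 CPM in siZNF514. The groups overlapped, and the log2 fold change of -0.00 had a 95% interval of -0.08 to 0.08. With total counts alone RAD21 passed as lower (-0.13, adjusted p = 0.015 in edgeR), where the median of all genes was -0.14. UTP23, which overlaps the end of RAD21 on the opposite strand, did not pass (log2 fold change -0.07, SE 0.07).

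SMC3 (ENSG00000108055, chromosome 10, 110567691 to 110604636, plus strand), whose acetylation locks cohesin on sister chromatids, was at 173, 162 and 163 CPM in nc and 199.5, 189 and 173 CPM in siZNF514. The groups touched, the lowest siZNF514 library being level with the highest nc library. The log2 fold change of 0.17 (SE 0.06) missed the threshold (adjusted p = 0.0518 in edgeR), and its 95% interval was 0.03 to 0.32. SMC3 passed at 0.24 without siZNF514 replicate 3 and at 0.19 with no filter beyond a count above 0, but was only 0.05 with total counts alone (adjusted p = 0.57 in edgeR) and in limma-trend on log2(FPKM + 0.1) (adjusted p = 0.6).

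STAG2 (ENSG00000101972, chromosome X, 123960212 to 124422664, plus strand), the repeat subunit of most somatic cohesin, was at 171, 158 and 156 CPM in nc and 175, 168 and 159 CPM in siZNF514. The groups overlapped, and the log2 fold change of 0.05 had a 95% interval of -0.09 to 0.18. It was 0.09 without siZNF514 replicate 3 and turned to -0.08 with total counts alone, neither past the threshold.

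SMC1A (ENSG00000072501, chromosome X, 53374149 to 53422728, minus strand), the partner of SMC3, was uneven between libraries of the same group. It was at 254, 178 and 252 CPM in nc and 269, 177 and 179 CPM in siZNF514. In both groups some libraries were near 178 CPM and others near 254 CPM or above, so the level did not follow the groups. The log2 fold change was -0.13 (SE 0.20), and its 95% interval of -0.60 to 0.34 is the widest among the 10 members and holds changes of either sign larger than that of SMC2. Leaving out 1 library moved the value between -0.35 (without siZNF514 replicate 1) and -0.02 (without siZNF514 replicate 2), with -0.03 without siZNF514 replicate 3, and none of these passed. The SD of log2(CPM + 0.1) within groups placed SMC1A at percentile 82.0 of all tested genes, against percentile 0.989 for RAD21, 2.15 for NCAPD3 and 21.3 to 40.3 for the other 7 members.

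Ratios of 2 genes within a library do not depend on how libraries are scaled, and 6 such ratios were compared on the deposited FPKM (counts scaled to the library total and to gene length). The condensin I subunit was higher relative to its condensin II counterpart in every siZNF514 library, in each of the 3 matched pairs. The ratio of the kleisins NCAPH to NCAPH2 was 1.49, 1.30 and 1.46 in nc and 1.99, 2.32 and 2.14 in siZNF514, a 1.52-fold difference. The ratio NCAPG to NCAPG2 was 0.705, 0.815 and 0.836 in nc and 1.17, 1.17 and 1.10 in siZNF514, a 1.46-fold difference. The ratio NCAPD2 to NCAPD3 was 1.12, 1.26 and 1.30 in nc and 1.61, 1.47 and 1.46 in siZNF514, a 1.23-fold difference although both genes rose.

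Among cohesin pairs, STAG2 to STAG1 was 6.33, 6.35 and 5.14 in nc and 7.47, 7.26 and 6.43 in siZNF514, again without overlap but by a narrow margin. The SMC pairs overlapped between groups: SMC2 to SMC4 was 1.48, 1.60 and 1.50 in nc against 1.29, 1.30 and 1.53 in siZNF514, and SMC1A to SMC3 was 0.569, 0.427 and 0.602 against 0.523, 0.363 and 0.402. An exact two-sided permutation test gave p = 0.1 for each of the 4 ratios that did not overlap, the smallest that 3 against 3 libraries allow, and 0.15 after Benjamini-Hochberg adjustment over the 6 ratios. None of the ratios could therefore pass a threshold of 0.05. For comparison, the CPM of single genes did not overlap between the groups for 60.3% of all tested genes. No such share was computed for ratios of gene pairs.

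**Figure D3:**
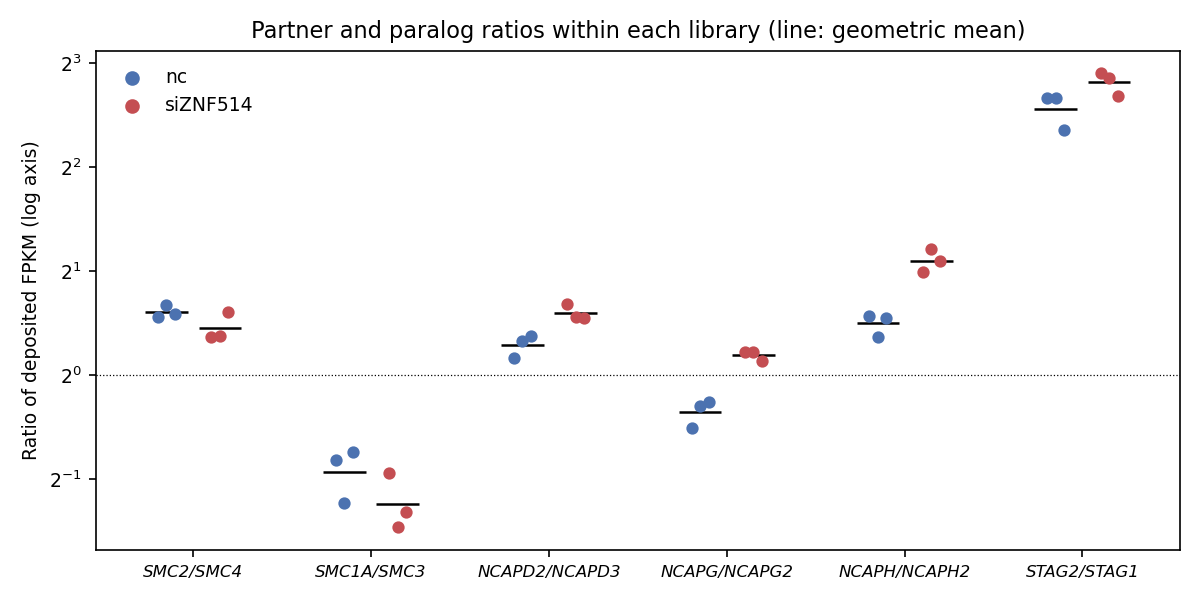
Ratio of deposited FPKM of 2 partner or paralog genes in each library (vertical axis, log scale), nc in blue and siZNF514 in red, with the geometric mean as a line. NCAPD2/NCAPD3, NCAPG/NCAPG2, NCAPH/NCAPH2 and STAG2/STAG1 are higher in every siZNF514 library, and the 2 SMC pairs overlap.

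Of the subunits outside the 10, 1 of 2 tested for condensin II fell, and 1 of 2 tested for cohesin, a meiotic one, fell. None rose. The share called was 50% in either list, near the 50.6% of all tested genes. NCAPG2, the condensin II counterpart of NCAPG, was at 127 ± 5.14 CPM in nc and 135 ± 1.76 CPM in siZNF514 (SD, n = 3), and did not pass (log2 fold change 0.09, 95% interval -0.02 to 0.20). NCAPH2, the kleisin of condensin II, fell from 48.0 ± 1.44 to 40.5 ± 3.68 CPM (-0.24, SE 0.08, adjusted p = 0.0354 in edgeR). That call was lost in the DESeq2 Wald test (-0.23) and without any library other than siZNF514 replicate 3, with values of -0.26 without nc replicate 1 and without siZNF514 replicate 1, -0.22 without nc replicate 2, -0.25 without nc replicate 3 and -0.16 without siZNF514 replicate 2. It was also lost with no filter beyond a count above 0 (-0.23), and held at -0.37 with total counts alone. STAG1 did not pass (33.2 ± 3.40 to 28.8 ± 0.996 CPM, log2 fold change -0.21, SE 0.09) and passed at -0.27 without nc replicate 2 and at -0.33 with total counts alone, whereas it was -0.12 without nc replicate 3. Of the meiotic cohesin subunits, SMC1B and RAD21L1 had no count and STAG3 had at most 1 count in a library. REC8, the meiotic kleisin, had 48, 42 and 25 counts in nc and 16, 14 and 12 in siZNF514 and fell (-1.43, SE 0.30, adjusted p = 0.00647 in edgeR).

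How the subunits ranked against each other depended on the gene length used. By deposited FPKM, nc levels ran in the order SMC3 (39.7 ± 1.66), NCAPD2 (35.1 ± 1.83), NCAPD3 (28.7 ± 0.696), RAD21 (28.5 ± 0.437), SMC1A (21.2 ± 4.08), STAG2 (14.9 ± 0.808), NCAPH (12.2 ± 0.595), SMC2 (11.4 ± 1.04), NCAPG (10.9 ± 0.556) and SMC4 (7.45 ± 0.480), each as mean FPKM with SD over 3 libraries. NCAPD3 and RAD21 did not differ beyond their spread, nor did SMC2 and its neighbours in that order, NCAPH and NCAPG. In siZNF514 NCAPD2 was first, at 52.0 ± 2.84 FPKM, and SMC3 second, at 41.0 ± 3.10 FPKM (SD, n = 3).

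The lengths behind those FPKM values are longer than the GENCODE 29 exon union and longest transcript for all 10 members, by a margin that differs between them. For SMC4 the deposited values divide by 18.3 kb, whereas its exons in GENCODE 29 cover 8.46 kb together and its longest transcript is 5.47 kb. For SMC3 the corresponding lengths are 4.36, 4.28 and 4.11 kb. Recomputed per longest GENCODE transcript, RAD21 was first in nc (75.4 ± 1.15), followed by NCAPD3 (65.7 ± 1.60) and NCAPD2 (63.5 ± 3.30), which did not differ beyond their spread, and SMC4 (24.9 ± 1.60) was above SMC2 (19.7 ± 1.79), on the FPKM scale (SD, n = 3). NCAPG, at 14.8 ± 0.753, was then the lowest. Per exon union, NCAPD2 (54.3 ± 2.82) was first, ahead of RAD21 (45.7 ± 0.699). SMC2 (18.3 ± 1.66) was there above SMC4 (16.1 ± 1.04), though not beyond their spread. The order of SMC2 and SMC4 thus turned with the longest transcript alone. Differences between the groups within a gene do not depend on the length used.

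**Figure D4:**
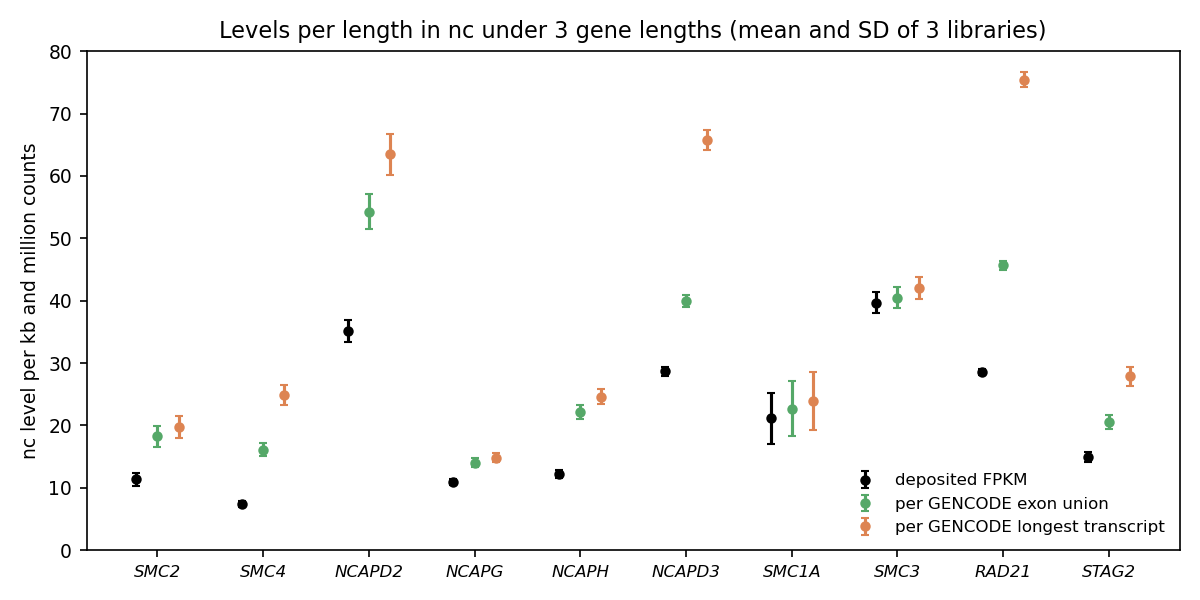
Level of each subunit in nc on the FPKM scale (vertical axis, mean and SD of 3 libraries) by the deposited FPKM (black), by the GENCODE 29 exon union length (green) and by the longest GENCODE 29 transcript (orange). SMC3 is near 40 under each length, whereas RAD21 goes from 28.5 to 75.4 and SMC4 from 7.45 to 24.9.

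Other genes of chromosome structure and sister chromatid cohesion were taken from lists of 42 genes, of which 38 were tested, 14 rose, 9 fell and 15 did not pass. That is 60.5% called and 36.8% higher, against 50.6% and 25.5% of all tested genes. Their median log2 fold change was 0.14, against -0.01 for all tested genes. Because the lists were chosen with earlier results of these data known, these shares and those of each list below are descriptive only.

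The genes that guard cohesin and cut it at anaphase were higher: all 4 on the list rose, with a median log2 fold change of 0.62, where 25.5% of tested genes rose. PTTG1, securin, which inhibits separase, was at 87.6, 91.1 and 95.1 CPM in nc and 175, 199 and 189 CPM in siZNF514. ESPL1, the separase that cleaves RAD21, was at 69.7, 77.5 and 69.9 CPM in nc and 114, 115 and 121 CPM in siZNF514. The inhibitor and its protease were thus both higher in every siZNF514 library, by log2 fold changes of 1.04 (SE 0.06) and 0.69 (SE 0.06). The shugoshin genes SGO1 and SGO2, which protect centromeric cohesin, rose by 0.56 (SE 0.10) and 0.50 (SE 0.07).

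Of the 6 genes of cohesin loading, release and loop anchoring, 2 fell, 4 did not pass and none rose, a called share of 33.3% against 50.6% of all tested genes. WAPL, which opens the cohesin ring and releases it from chromatin, fell from 109 ± 3.33 to 82.9 ± 3.08 CPM (SD, n = 3; log2 fold change -0.39, SE 0.05, adjusted p = 0.000655 in edgeR). CTCF, the factor that stops cohesin at loop anchors, fell from 97.5 ± 0.660 to 83.7 ± 0.837 CPM (-0.22, SE 0.04). It was -0.35 with total counts alone. The loader NIPBL did not pass (0.06, 95% interval -0.12 to 0.23). Its partner MAU2 (-0.32, SE 0.30) did not pass either and was -0.07 without nc replicate 1 and -0.06 without siZNF514 replicate 2, nor did PDS5B (0.21, SE 0.09), a cohesin-bound regulator, which passed at 0.29 without siZNF514 replicate 3.

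A list of 8 genes drawn up for cohesion establishment during replication also held HDAC8, which acts against SMC3 acetylation. On that list 2 genes rose, 3 fell and 3 did not pass. The called share was 62.5%, against 50.6% of all tested genes. ESCO2, an acetyltransferase that modifies SMC3 in S phase, was at 41.4, 40.5 and 41.3 CPM in nc and 25.0, 27.1 and 23.1 CPM in siZNF514 (log2 fold change -0.71, SE 0.08, adjusted p = 0.000314 in edgeR). CHTF8 (-0.72, SE 0.11) and CHTF18 (-0.40, SE 0.10), parts of the clamp loader used in cohesion, fell as well. CDCA5, sororin, which counters WAPL, rose by 0.19 (SE 0.04), a call lost with total counts alone (0.07) and in limma-trend on log2(FPKM + 0.1). HDAC8, which removes the acetyl mark from SMC3 and was named after its values were seen, rose by 0.50 (SE 0.16). It no longer passed without siZNF514 replicate 1 (0.49), without siZNF514 replicate 2 (0.48) or with total counts alone (0.38), nor in limma-trend on log2(FPKM + 0.1) (0.39).

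For SMC5/6, an SMC complex that acts in DNA repair, 2 of 8 tested genes rose, 2 fell and 4 did not pass, shares near those of all tested genes (25.5% higher and 25.1% lower). NSMCE1 rose (0.56, SE 0.07), NSMCE3 fell (-0.79, SE 0.11), and SMC6 fell (-0.42, SE 0.11). SLF2, a loader of the complex, rose by 0.27 (SE 0.09) with an adjusted p of 0.0456 in edgeR. That call was lost without nc replicate 1 (0.25), nc replicate 2 (0.24) or siZNF514 replicate 1 (0.19), with total counts alone (0.14) and in the DESeq2 Wald test (0.28).

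On a list drawn up for partners of condensin on mitotic chromosomes, 6 of 8 genes rose, where 25.5% of tested genes rose. The median log2 fold change was 0.54. The list is wider than its name, since it also holds TOP2B and MCPH1. TOP2A, the topoisomerase that untangles sister chromatids, was at 463, 454 and 449 CPM in nc and 628, 612 and 591 CPM in siZNF514 (0.42, SE 0.03). KIF4A, the kinesin that works with condensin on the chromosome axis, rose by 0.66 (SE 0.05), close to NCAPD2 and NCAPG in size. The mitotic kinase genes PLK1 (1.03, SE 0.06) and CDK1 (0.75, SE 0.05), whose products phosphorylate condensin, rose too, as did AURKB (0.82, SE 0.11) and TOP2B (0.31, SE 0.06), both named after their values were seen. TOP2B was 0.19 with total counts alone. MCPH1, which restrains condensin II and was also named after its values were seen, lay lower in every siZNF514 library (31.0 ± 1.67 to 27.1 ± 0.783 CPM, SD, n = 3) but did not pass (-0.19, SE 0.07). MKI67, which coats mitotic chromosomes, was at 114, 108 and 194 CPM in nc and 132, 111 and 281 CPM in siZNF514 and did not pass (0.34, SE 0.38). Without siZNF514 replicate 3 its log2 fold change was -0.18, also not past.

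**Figure D5:**
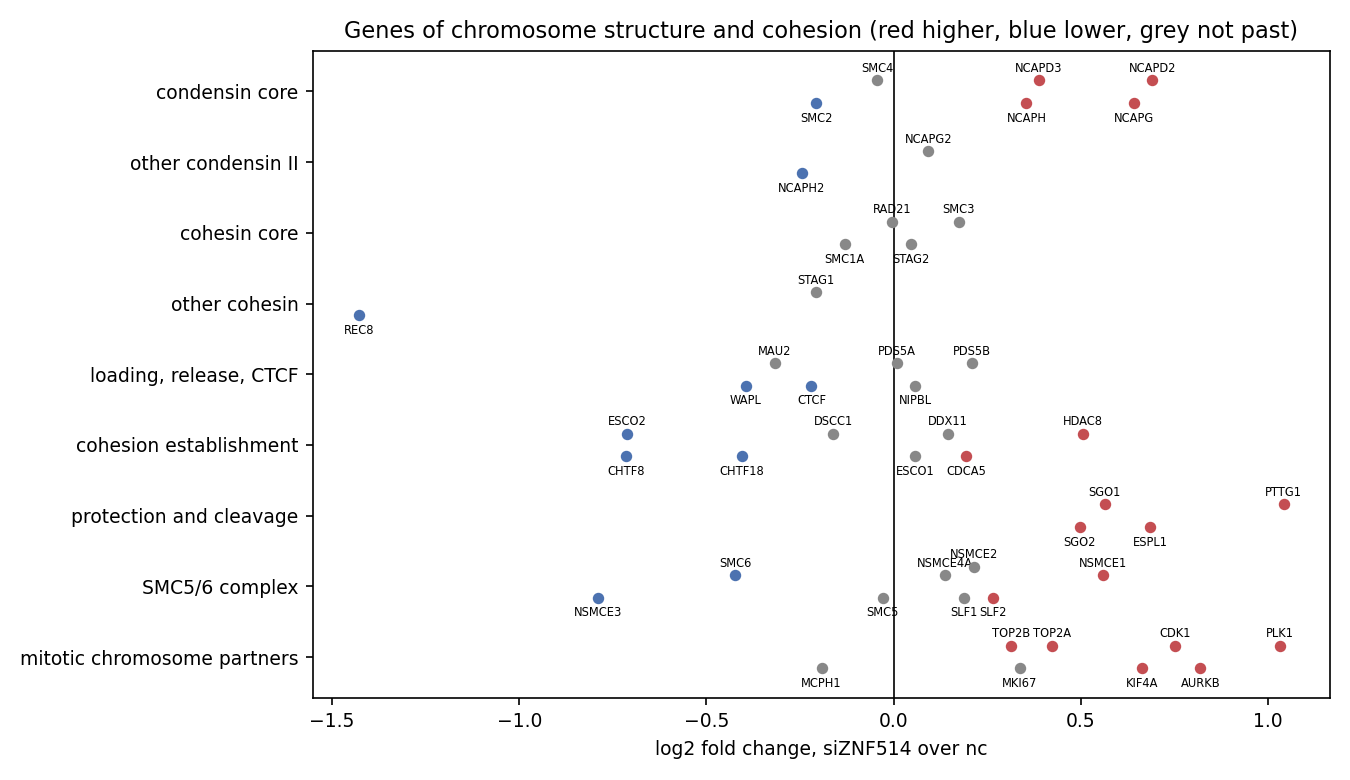
Log2 fold change of siZNF514 over nc (horizontal axis) for the tested genes of each list (rows), red where the gene passed an adjusted p of 0.05 as higher, blue as lower and grey where it did not pass. The cohesin protection and cleavage genes lie between 0.50 and 1.04, whereas the cohesin core lies between -0.13 and 0.17.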

How the data were processed

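RNA sequencing of 6 KYSE-150 libraries was used. Per the submitters' processing notes, the authors used HISAT2 2.0.4, StringTie 1.3.3b, edgeR and hg38, with no role or order given. The authors deposited whole-number counts and FPKM values per gene, with no annotation release or strand setting stated in the labels. Gene coordinates were identical to GENCODE 29 for 47484 of 50868 genes, all 10 members included. Columns were matched by library title, with 3 libraries in each of nc and siZNF514.

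Counts were filtered with filterByExpr (minimum count 10, minimum total 15), scaled by TMM and tested across 14250 genes with the edgeR 4.0.16 quasi-likelihood F test (R 4.3.3), with Benjamini-Hochberg adjustment at 0.05. The SE is the log2 fold change divided by the square root of F. Pairs of libraries within a group differed by more than sampling noise (chi-square per degree of freedom 7.98 to 10.0). The test was checked on simulated data. Alternatives were a replicate block, leaving out each library, DESeq2 1.42.0 size factors and Wald test, total counts, other filters, and limma-trend (limma 3.58.1) on log2(FPKM + 0.1) and log2(FPKM + 1) at a mean FPKM of at least 0.1. Gene lengths from GENCODE 29 were added after seeing the data. Named genes were all members and other subunits, and, per list, up to 4 genes with the smallest p-value plus NIPBL, WAPL, ESPL1, PTTG1, TOP2A and MKI67, with HDAC8, AURKB, TOP2B, MCPH1 and PDS5A, marker genes and neighbouring genes named outside that rule after their values were seen. The members and lists were chosen with earlier results of these data known.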

Additional observations from a re-analysis of the deposited data

How the results depend on the processing

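Under the 14 alternative settings NCAPD2, NCAPD3, NCAPG and NCAPH stayed past the threshold and higher, with log2 fold changes of 0.55 to 0.73, 0.25 to 0.41, 0.48 to 0.68 and 0.21 to 0.39. The count of members that fell, 1 in the report, was 0 with the replicate block, with no filter beyond a count above 0 and in the DESeq2 Wald test, 2 with total counts alone and in both limma-trend fits, and 0 to 1 with each library left out in turn. SMC2 lost its call with the replicate block (-0.20), with no filter (-0.19) and in the DESeq2 Wald test (-0.20), and ran from -0.27 to -0.14 with a library left out. SMC3 passed with the replicate block (0.17) and with no filter (0.19), and ran from 0.14 to 0.24 with a library left out. RAD21 passed as lower with total counts alone (-0.13), in limma-trend on log2(FPKM + 0.1) (-0.13) and on log2(FPKM + 1) (-0.13), settings that carry no correction beyond the total. NCAPH2 and SLF2 also lost their calls with the replicate block (-0.25 and 0.26). PDS5A, 0.01 in the fit reported, was -0.12 and past the threshold with total counts alone. Other causes were not tested. Over all genes, 3356 rose and 3284 fell with the replicate block, and 2441 rose and 4626 fell in limma-trend on log2(FPKM + 0.1). Same-numbered libraries did not deviate together over all genes (correlations -0.04 to 0.04), so the numbers were not taken as pairs. Single genes differed in this. With the replicate block the SE of SMC1A was 0.12 in place of 0.20, and SMC1A still did not pass (-0.14). For NCAPD2 the SE was 0.06 in place of 0.05. With the ratio of counts in place of FPKM, the 6 ratios differed between groups by the same amounts. That had to be so, because library total and gene length cancel in these differences, and it is no separate check. At these depths the spread between libraries limits SMC1A more than counting does.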
